A study of Homo sapiens with 15 samples.

Results

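The genes described here are 8 human genes of the ribosomal protein paralog family: RPL22 and its copy RPL22L1, with RPL7L1, RPL26L1, RPL36AL, RPL39L, RPS27L and RPL3L. They are the 8 rows with these symbols among 55773 gene names in a table of ribosome footprints, and they were chosen from measured values: RPL22L1 stood about 6.97 times higher in cells expressing tagged ZC3H7A than in the tag control. That comparison is therefore given without a test for the 8 genes. The footprints come from HEK293 cells, an established line from human embryonic kidney, with 15 libraries in 5 groups of 3.

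All 3 Flag/HA groups were inducible Flp-In T-REx 293 lines, and all 3 received doxycycline at 1 µg/mL for 24 h. The Flag/HA control expressed the tag, the ZC3H7A group Flag/HA-ZC3H7A, and the ZC3H7B group Flag/HA-ZC3H7B. ZC3H7A and ZC3H7B are related zinc finger proteins that bind RNA. The Parental group carried the genotype Wild-type-shCTR, a control hairpin, and the ZC3H7A/B-DD group the genotype ZC3H7A-KO-shZC3H7B, that is, ZC3H7A knocked out and ZC3H7B targeted by a hairpin. Both were kept in puromycin at 5 µg/mL until 2 passages before collection, and their frozen pellets were lysed with cycloheximide at 100 µg/mL. The labels do not say how many clones each line holds. They call the Flag/HA replicates independent and say nothing of the kind for the other 6 libraries, where p-values cover only the spread among the libraries, and that spread may be technical. The Flag/HA libraries and the other 6 differ in lysis and library preparation, so each set was tested on its own.

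Most ribosomal proteins of vertebrates come from a single gene, and a small number have a second, related gene whose product can take the same place in the ribosome. RPL22 encodes an RNA-binding protein on the surface of the large subunit, which cells can replace with RPL22L1, and mice that lack Rpl22 have more Rpl22l1. RPL3L is known from striated muscle and RPL39L from male germ cells, while RPL7L1 is known as a factor linked to large subunit assembly.

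The coding sequences set the paralogs apart at the base level, so a stretch of the RPL22 pair is shown. RPL22L1 (chr3:170864875-170870483, minus strand, GRCh38) encodes 122 residues, and RPL22 (chr1:6185020-6209389, minus strand) encodes 128. The 2 proteins share 73.8% of 122 aligned residues. The stretches below cover codons 68 to 97 of RPL22L1 and codons 74 to 103 of RPL22, 90 bases each, 5′ to 3′, from the GENCODE 29 coding sequences. Capitals mark the 20 bases that differ between them, although 28 of the 30 residues are the same.
RPL22L1: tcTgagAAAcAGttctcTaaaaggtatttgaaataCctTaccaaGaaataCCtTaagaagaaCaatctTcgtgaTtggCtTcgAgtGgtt
RPL22: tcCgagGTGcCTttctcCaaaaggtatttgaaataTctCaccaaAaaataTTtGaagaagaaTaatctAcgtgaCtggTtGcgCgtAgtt
The longest run of bases that the pair shares is 17, and none of the 339 windows of 28 bases in RPL22L1, about the length of a footprint, occurs in RPL22. A read of that length can therefore be told apart between the 2 genes.

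RPS27L (chr15:63125872-63158021, minus strand) and RPS27 (chr1:153990755-153992155, plus strand) show the other feature in which members differ, the base at the end of each codon. Codons 18 to 47 encode the same 30 residues in both genes. Capitals mark codons that end in A or T, which are 19 of 30 in RPS27L and 10 of 30 in RPS27.
RPS27L: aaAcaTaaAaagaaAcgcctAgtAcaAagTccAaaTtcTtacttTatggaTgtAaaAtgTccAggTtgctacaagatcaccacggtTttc
RPS27: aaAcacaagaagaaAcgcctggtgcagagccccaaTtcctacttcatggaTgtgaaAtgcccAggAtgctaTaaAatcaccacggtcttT
RPL36AL (chr14:49618519-49620685, minus strand) is the opposite case, since it shares a long run with its partner gene RPL36A (chrX:101390824-101396154, plus strand). The longest shared run is this one of 60 bases, in which no read of footprint length can be assigned to either gene by its sequence.
RPL36AL: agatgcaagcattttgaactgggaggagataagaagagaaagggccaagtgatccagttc
Of the 291 windows of 28 bases in RPL36AL, 33 occur in RPL36A. RPL39L likewise shares a run of 44 bases with RPL39, and 17 of its 126 windows occur in RPL39. Reads from those windows cannot be assigned to RPL39L or RPL39 by their sequence.

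Across all libraries, 20777204 to 42680589 reads were assigned to genes, and values are these reads after division by the size factor of their library, called normalized counts. Each of the 8 HEK293 markers reached 10 normalized counts in every library. Their summed level was 28521 to 30047 in the control libraries, 34513 to 37116 in the ZC3H7A libraries, 32610.1 to 36408 in the ZC3H7B libraries, 34525 to 41599.9 in Parental and 53997 to 58971 in ZC3H7A/B-DD. ZC3H7A stood at 6547 ± 52.6 (SD, n = 3) in the Flag/HA control and at 38044 ± 562 in the ZC3H7A group, and ZC3H7B at 2152 ± 71.8 in the control and 27885 ± 927 in the ZC3H7B group. In the libraries labelled ZC3H7A/B-DD neither target had a lower mean than in Parental, and for both targets the groups overlapped. ZC3H7A values were 7116, 1890 and 5066 in ZC3H7A/B-DD and 1885, 1820 and 2311 in Parental. ZC3H7B values were 3948, 2399 and 2969 in ZC3H7A/B-DD and 2479, 2321 and 2609 in Parental. The means were 4691 ± 2633 against 2005 ± 267 for ZC3H7A, and 3105 ± 783 against 2469.7 ± 144 for ZC3H7B (SD, n = 3). Directions drawn from those libraries rest on their labels.

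**Figure D1:**
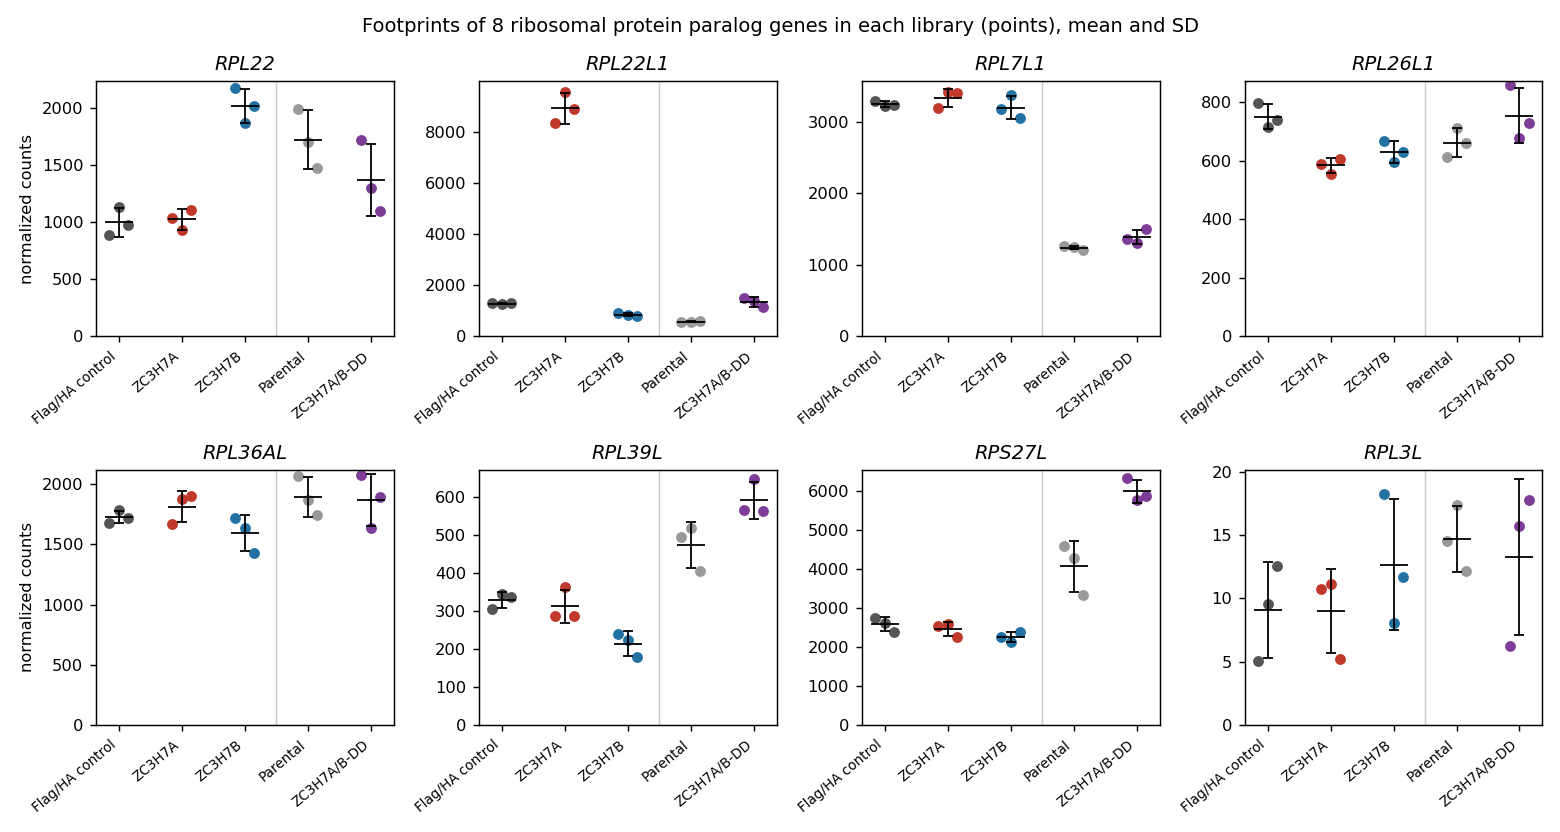
Normalized counts (reads divided by a size factor, linear axes from 0) of each of the 8 genes in 15 libraries. Points are libraries, the long bar is the mean of 3 and the whiskers are 1 SD. The 3 ZC3H7A libraries stand at 8325 to 9530.1 for RPL22L1 and the other 12 at or below 1511.

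RPL22L1 was the member with the widest range. In the Flag/HA control it stood at 1295, 1256 and 1289.8 normalized counts, and at 8325, 9530.1 and 8901 in the ZC3H7A group. Every ZC3H7A library lay above every control library, and the means were 1280.3 ± 21.1 and 8919 ± 603 (SD, n = 3). The difference was 2.80 on the log2(value + 1) scale, which is used for all differences below and understates the change of low genes. Among 77 further cytosolic ribosomal protein genes and the 8 members, RPL22L1 had the highest difference, and the next was RPS28, a small subunit protein, at 1.41. Since the members were chosen on this difference, nothing is read from that rank. Footprints alone do not separate more mRNA from more translation of it, and in a bulk sample fewer cells with a transcript and less of it per cell cannot be told apart.

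RPL22, the widely used gene of the pair, did not share that difference. It stood at 885, 1133 and 979 in the control and at 1035, 931 and 1112 with ZC3H7A, so the groups overlapped and the log2 difference was 0.042. With ZC3H7B the values were 2174, 1873 and 2018, all above the control. RPL22 rose 2.02-fold there, from 999 ± 125 to 2022 ± 151 (SD, n = 3), a log2 change of 1.02 (95% interval 0.86 to 1.18, limma adjusted p = 1.65e-10). Only RPS28, at 1.27, had a higher log2 change among the 85 ribosomal protein genes in that comparison.

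RPL22L1 moved the other way with ZC3H7B. Its values of 905, 853 and 802 all lay below the control libraries. The mean fell by 33.3% to 853 ± 51.2 (SD, n = 3), a log2 change of -0.59 (95% interval -0.70 to -0.47, limma adjusted p = 5.17e-09). This comparison uses the same 3 control libraries as the one that chose the members, so the 2 are not independent.

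The libraries labelled ZC3H7A/B-DD and their Parental libraries share no library with the Flag/HA set. RPL22L1 stood at 577, 577 and 590.2 in Parental and at 1511, 1374 and 1149.7 in ZC3H7A/B-DD, with no overlap. It rose 2.31-fold, from 581 ± 7.68 to 1345 ± 182 (SD, n = 3), a log2 change of 1.20 (95% interval 0.95 to 1.45, limma adjusted p = 0.000158). Of all genes tested there, 2.05% had a larger log2 change, and among the 85 ribosomal protein genes RPL22L1 stood highest. RPL22 stood at 1991, 1704 and 1474 in Parental and at 1718, 1298 and 1100.5 in ZC3H7A/B-DD, and these groups overlapped. Its log2 difference of -0.34 did not pass the test (95% interval -0.72 to 0.034, limma adjusted p = 0.165). The call depended on a library and on the weights: without ZC3H7A/B-DD replicate 1 the log2 change was -0.52 (limma adjusted p = 0.0444), and with array weights -0.49 (limma adjusted p = 0.0108).

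The ratio of RPL22L1 to RPL22 within a library does not depend on the scaling of that library. It is a ratio of normalized counts and is not corrected for coding length or for sequence that either gene shares with other genes. It was 1.46, 1.11 and 1.32 in the 3 control libraries, 8.04, 10.2 and 8.00 in those with ZC3H7A, and 0.416, 0.456 and 0.398 in those with ZC3H7B. The ratio was above 1 in every Flag/HA control and ZC3H7A library and below 1 in every ZC3H7B library. The ratio was 0.290, 0.338 and 0.400 in Parental and 0.880, 1.06 and 1.04 in ZC3H7A/B-DD. On the log2 scale the ratio differed from its control by 2.76 with ZC3H7A (no test), by -1.61 with ZC3H7B and by 1.54 in ZC3H7A/B-DD. The last 2 differences each had an exact two-sided permutation p = 0.1, the smallest that 3 against 3 libraries can give. All 3 ZC3H7B ratios lay below the control ratios, and all 3 ZC3H7A/B-DD ratios lay above the Parental ones.

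**Figure D2:**
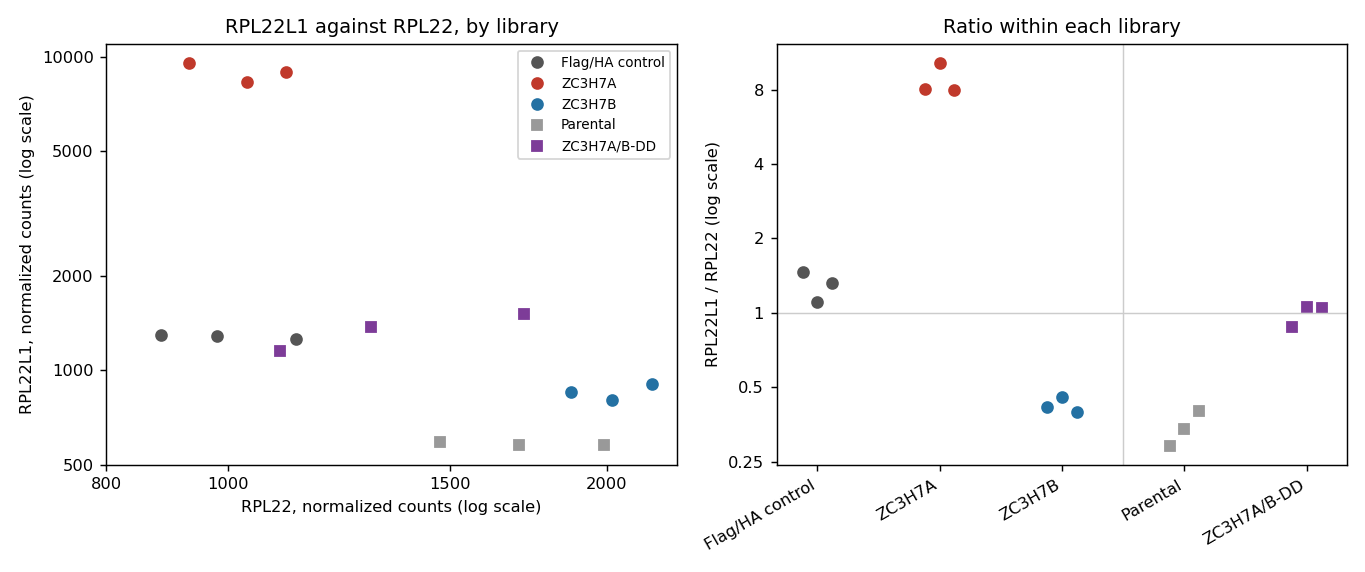
Left, RPL22L1 against RPL22 in normalized counts for each of the 15 libraries, on log axes. Right, the ratio of RPL22L1 to RPL22 in each library on a log axis, where the ZC3H7A libraries stand at 8.00 to 10.2 and the ZC3H7B libraries at 0.398 to 0.456.

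RPL26L1, whose protein is 98.6% identical to that of RPL26, a large subunit protein, stood at 799, 714 and 739 normalized counts in the control. Its ZC3H7A values of 589, 556 and 606 and its ZC3H7B values of 669, 594 and 631 all lay below these. The log2 difference was -0.36 with ZC3H7A (no test) and -0.25 with ZC3H7B (limma adjusted p = 0.00623), where RPL26L1 fell. In ZC3H7A/B-DD it stood at 857, 677 and 727 against 613, 713 and 659, which overlap (log2 0.18, limma adjusted p = 0.273).

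RPL39L encodes a short protein of 51 residues, 47 of them the same as in RPL39, which lies near the exit tunnel of the large subunit. It stood at 306, 345 and 337 in the control, at 288, 363 and 287 with ZC3H7A and at 240.2, 225 and 179 with ZC3H7B. The first 2 groups overlapped, and the ZC3H7B libraries lay below all controls. RPL39L fell with ZC3H7B (log2 change -0.62, limma adjusted p = 0.000129), the lowest log2 change among the 85 ribosomal protein genes. In ZC3H7A/B-DD it stood at 565, 649 and 564 against 496, 519 and 405 in Parental, higher in 3 of 3 libraries. That log2 difference of 0.33 did not pass the test (95% interval 0.052 to 0.60, limma adjusted p = 0.0805), and with quantile normalization it was 0.39 (limma adjusted p = 0.0354).

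RPS27L, a small subunit paralog, stood at 4590.1, 4291 and 3331 in Parental and at 6331, 5778 and 5860 in ZC3H7A/B-DD. These groups did not overlap, and RPS27L rose 1.47-fold (log2 change 0.57, limma adjusted p = 0.0104), the second highest of the 85 ribosomal protein genes after RPL22L1. In the Flag/HA set it stood at 2734, 2622 and 2385 in the control and at 2531, 2597 and 2265 with ZC3H7A, a log2 difference of -0.066. Its ZC3H7B values of 2258, 2139.5 and 2385 just reached the lowest control library, with a log2 change of -0.19 (limma adjusted p = 0.00986). That call was lost without ZC3H7B replicate 2 (limma adjusted p = 0.0632), without control replicate 1 (limma adjusted p = 0.0704), with quantile normalization (limma adjusted p = 0.086) and with all 15 libraries in the fit (limma adjusted p = 0.136).

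RPL7L1, with 43.7% of residues in common with RPL7 the least alike of the pairs, differed little within each set. Its libraries stood at 3220.5 to 3294 in the control, 3196 to 3413 in the ZC3H7A group and 3054 to 3378 in the ZC3H7B group, which all overlap. The log2 differences were 0.038 with ZC3H7A and -0.022 with ZC3H7B (95% interval -0.12 to 0.077, limma adjusted p = 0.724). It stood at 1215 to 1263 in Parental and 1301 to 1498 in ZC3H7A/B-DD, which do not overlap, and the log2 difference of 0.16 did not pass the test (95% interval -0.039 to 0.35, limma adjusted p = 0.221).

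RPL36AL, which differs from RPL36A in 1 of 106 residues, likewise overlapped between all groups that were compared. Control libraries ranged from 1679.8 to 1781, ZC3H7A libraries from 1668 to 1899 and ZC3H7B libraries from 1427 to 1718. The log2 difference of -0.12 with ZC3H7B did not pass the test (95% interval -0.25 to 0.014, limma adjusted p = 0.122), and without ZC3H7B replicate 1 it was -0.18 (limma adjusted p = 0.0378). Parental libraries stood at 1743 to 2069 and ZC3H7A/B-DD libraries at 1638 to 2073, a log2 difference of -0.023 (95% interval -0.27 to 0.22, limma adjusted p = 0.9).

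RPL3L was close to undetected. Between 4 and 20 reads were assigned to it in a library, which gives 5.06 to 18.2 normalized counts and a level too low to compare groups. The log2 difference was 0.45 with ZC3H7B (95% interval -0.57 to 1.47, limma adjusted p = 0.463) and -0.24 in ZC3H7A/B-DD (95% interval -1.19 to 0.71, limma adjusted p = 0.708). Striated muscle markers were also low: 1 of 7 reached 10 normalized counts in all 3 libraries of each Flag/HA group (ACTA1, a skeletal actin) and 2 of 7 in the other 2 groups. Their summed level was 13.2 to 25.1 across the Flag/HA libraries, against 110 to 170.1 elsewhere. For RPL39L, the male germ cell markers TNP1, PRM1 and PRM2 were at 0 in Parental and ZC3H7A/B-DD, and the sum of the 7 markers was 5.21 to 12.6 there and 8.03 to 38.0 in the Flag/HA libraries. SYCP3 was the highest of the 7 in the Flag/HA groups, with means of 13.5 in the control, 12.9 with ZC3H7A and 29.3 with ZC3H7B. Of the 7, 1 reached 10 normalized counts in all 3 libraries with ZC3H7B, and 0 did in each other group.

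With ZC3H7B 5 of 8 passed the test, against 54.3% of the 15599 genes tested. Of these 1 rose and 4 fell, where 28.9% of all genes rose and 25.4% fell. All 3 libraries stood above or below the controls for 4 of 8 members, against 61.1% of genes. In ZC3H7A/B-DD 2 of 8 passed and both rose, against 24.5% of the 17092 genes tested, 11.0% rising and 13.5% falling. The groups did not overlap for 4 of 8 members, against 40.8% of genes. With ZC3H7A the groups did not overlap for 2 of 8 members, RPL22L1 and RPL26L1, against 63.9% of genes, and nothing is read from that count since the members were chosen on this comparison. The median log2 difference of the 8 was 0.024 with ZC3H7A, -0.15 with ZC3H7B and 0.17 in ZC3H7A/B-DD, beside medians of 0.022, 0.036 and 0.024 over all genes tested. The shares of members called in either direction, 62.5% with ZC3H7B and 25% in ZC3H7A/B-DD, lie near the background and are no result about the set.

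**Figure D3:**
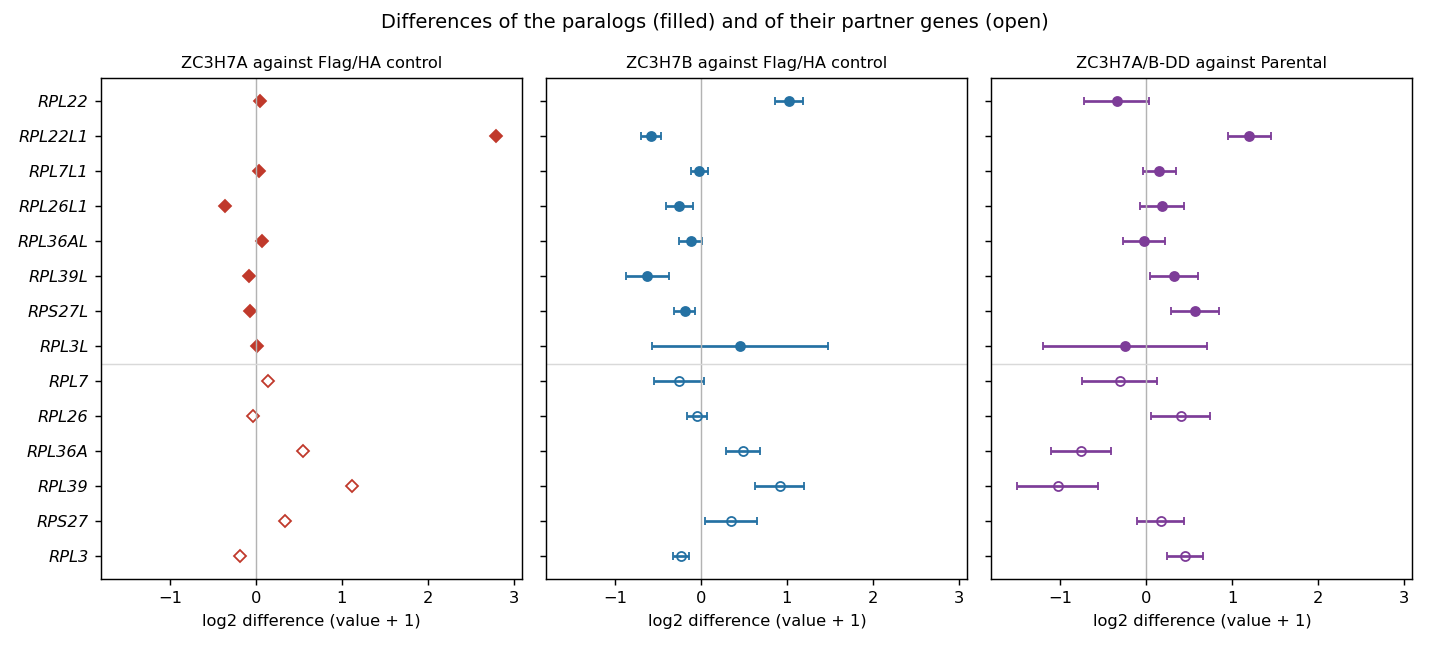
Log2 difference of each paralog (filled) and partner gene (open) from its control, on the log2(value + 1) scale. Whiskers are 95% intervals from limma, and the ZC3H7A panel has none because that comparison is a description. RPL22L1 stands at 2.80, -0.59 and 1.20 in the 3 panels.

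The 6 partner genes are the broadly used counterparts of the members outside the RPL22 pair. With ZC3H7A 3 of them passed, where 57.5% of all genes did. With ZC3H7B 4 passed, where 54.3% of all genes did, and in ZC3H7A/B-DD 3, where 24.5% did. RPL39 rose with ZC3H7B, from 129 ± 23.7 to 242 ± 18.1 normalized counts (SD, n = 3, log2 change 0.91, limma adjusted p = 5.52e-06). It rose with ZC3H7A as well (log2 change 1.12, limma adjusted p = 2.55e-07). RPL39L fell with ZC3H7B, and with ZC3H7A it overlapped its control. In ZC3H7A/B-DD RPL39 fell to 81.4 ± 15.8 from 168 ± 39.2 (log2 change -1.03, limma adjusted p = 0.00842). RPL36A rose with ZC3H7A (log2 change 0.54, limma adjusted p = 4.47e-05) and with ZC3H7B (0.49, limma adjusted p = 0.000171). It fell in ZC3H7A/B-DD (-0.76, limma adjusted p = 0.00818). RPL3 had the reverse order, with -0.18 for ZC3H7A (limma adjusted p = 0.00132) and -0.23 for ZC3H7B (limma adjusted p = 0.000117). It stood at 0.45 in ZC3H7A/B-DD (limma adjusted p = 0.00945), a call lost without Parental replicate 2 (limma adjusted p = 0.0638). RPS27 stood at 0.35 with ZC3H7B (limma adjusted p = 0.048) and lost that call under 10 of 18 other settings, among them without any control library or without ZC3H7B replicate 1 or 2 (limma adjusted p = 0.0722 to 0.226). RPL7 and RPL26 passed in none of the 3 comparisons. RPL7 did so under 3 of 18 other settings with ZC3H7B, such as without ZC3H7B replicate 3 (log2 -0.39, limma adjusted p = 0.0312). RPL26 did so under 6 of 17 in ZC3H7A/B-DD, such as without ZC3H7A/B-DD replicate 2 (0.57, limma adjusted p = 0.0209) or Parental replicate 3 (0.50, limma adjusted p = 0.0276).

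Counting is uncertain for the partner genes. All windows of 28 coding bases in RPL7, RPL36A, RPL39 and RPS27 also occur in transcripts of other genes. In the control RPL7 stood at 230 normalized counts per 1000 coding bases, RPS27 at 645, RPL39 at 845 and RPL36A at 2117. RPL26 stood at 25116 and RPL3 at 17452, and 88.5% and 68.0% of their windows occur in other genes too. How reads with several positions were counted is not given in the sources used here, so levels of these genes are uncertain, and its part in the differences was not tested.

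**Figure D4:**
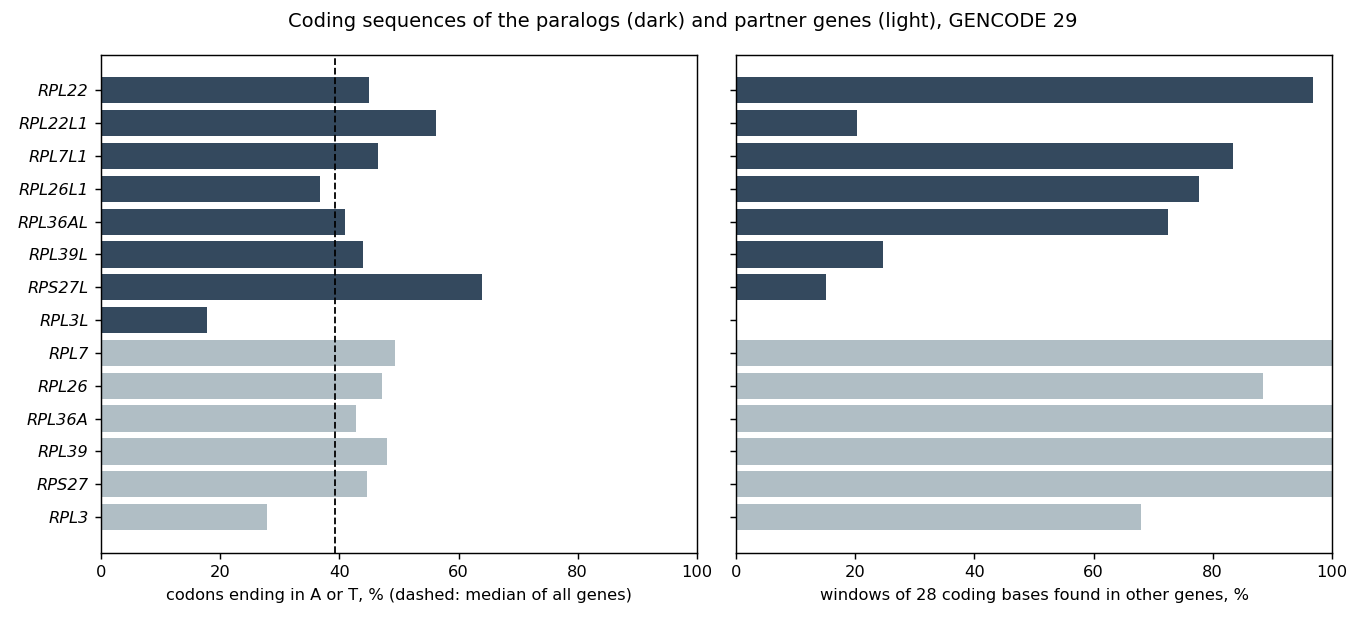
Left, percentage of codons ending in A or T for the 8 paralogs (dark) and 6 partner genes (light), with the median of all genes dashed at 39.3%. Right, percentage of windows of 28 coding bases that also occur in transcripts of other genes, from 0 for RPL3L to 100 for RPL7, RPL36A, RPL39 and RPS27.

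The same feature differs widely among the members. For RPL22, 96.9% of its 357 windows occur in other genes, the pseudogene RPL22P1 among them, against 20.4% for RPL22L1 and 15.1% for RPS27L. The share was 83.3% for RPL7L1, 77.7% for RPL26L1, 72.5% for RPL36AL, 24.6% for RPL39L and 0% for RPL3L. Rows named as numbered pseudogenes of RPL22 (4 rows) summed to between 0 and 24.1 normalized counts in a library, or 0.176% to 1.36% of the group mean of RPL22. The 12 such rows of RPL7L1 amounted to 0.320% to 0.344% of its mean in the Flag/HA groups, and to 7.36% and 8.45% of it in Parental and ZC3H7A/B-DD. These rows were picked by name only. Windows of RPL22 occur under 20 other gene names, more than its 4 rows, and those of RPL7L1 under 26, more than its 12 rows. Names of another form, such as RPL7P21 for RPL7L1, are not in these sums. Reads that were dropped for having several positions would not be in them either. The part of these shared windows in the levels of RPL22 and RPL7L1 was not tested.

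Levels between genes were compared per 1000 coding bases. They were not corrected for windows shared with other genes, 96.9% in RPL22, 83.3% in RPL7L1, 20.4% in RPL22L1 and 15.1% in RPS27L. The part of these windows in the order was not tested. In the Flag/HA control RPS27L was highest at 10239.9 ± 708 normalized counts per 1000 coding bases (SD, n = 3), followed by RPL36AL at 5432 ± 161, RPL7L1 at 4248 ± 50.9 and RPL22L1 at 3498 ± 57.6. RPL22 followed at 2602 ± 326, RPL39L at 2152 ± 132, RPL26L1 at 1726 ± 99.9 and RPL3L at 7.43 ± 3.09. In that order RPL22 and RPL39L differed by less than the sum of their SDs. With ZC3H7A RPL22L1 moved to the top, at 24368 ± 1647, above RPS27L at 9779.8 ± 697. With ZC3H7B RPL22 stood at 5265 ± 393, within its spread of RPL36AL at 5012 ± 472, and RPL22L1 at 2332 ± 140. In Parental RPL22L1 was among the lowest members at 1588 ± 21.0, within the spread of RPL7L1 at 1626 ± 33.3 and RPL26L1 at 1521 ± 116. In ZC3H7A/B-DD it stood at 3675 ± 499, within the spread of RPL39L at 3874 ± 318 and RPL22 at 3573 ± 822.

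Codon endings were also counted, since the title of the series speaks of codon-dependent regulation. The share of codons ending in A or T was 56.2% in RPL22L1, higher than in 78.8% of 19467 protein-coding genes, and 44.9% in RPL22. It was highest in RPS27L, at 63.9%, and lowest in RPL3L, at 17.7%. RPL7L1 had 46.5%, RPL39L 44%, RPL36AL 41.0% and RPL26L1 36.8%, beside a median of 41.7% in 77 other cytosolic ribosomal protein genes. At the 90 residues that the RPL22 pair has in common, 57.8% of RPL22L1 codons and 47.8% of RPL22 codons ended in A or T, and 49 of these residues used another codon. Whether codon endings have a part in the differences was not tested.

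Genes whose footprints followed RPL22L1 most closely were sought among 13991 genes, by Pearson r of log2 values over 15 libraries after the mean within each of the 2 sets was subtracted. They were HDX (r = 0.978), EFCAB4B (0.971), UBA2 (0.969), DCLK1 (0.969) and SPARC (0.967). Like RPL22L1, the 4 genes after HDX stood higher than their control with ZC3H7A and in ZC3H7A/B-DD and lower with ZC3H7B. In the ZC3H7A comparison their log2 differences ran from 0.29 for UBA2, a subunit of the SUMO-activating enzyme, to 2.93 for SPARC. With ZC3H7B they ran from -1.15 for SPARC to -0.069 for UBA2, and in ZC3H7A/B-DD from 0.13 for UBA2 to 2.49 for SPARC. No test is given for these genes. HDX had means of 0.798 normalized counts in the control, 277 with ZC3H7A, 0 with ZC3H7B, 11.7 in Parental and 232 in ZC3H7A/B-DD. In the Flag/HA set it met the filter on low values only through the ZC3H7A group. SPARC, a secreted matrix protein, stood at 52.5 in the control, 404 with ZC3H7A and 23.0 with ZC3H7B. For RPL22 the closest were ACADL (r = 0.908), BTNL9 (0.904), JUND (0.901), LIN52 (0.895) and FAM210B (0.886). RPL22 and RPL22L1 themselves had r = -0.57. These values describe 15 libraries that share protocols within each set, and they rest largely on differences between groups. Among those differences is the ZC3H7A one on which the members were chosen.

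Among 77 further cytosolic ribosomal protein genes, 34 rose and 8 fell with ZC3H7A, where 57.5% of all genes passed the test, 29.2% rising and 28.2% falling. With ZC3H7B 30 rose and 14 fell, where 28.9% of all genes rose and 25.4% fell. In ZC3H7A/B-DD 7 rose and 9 fell, where 11.0% of all genes rose and 13.5% fell. Their median log2 difference was 0.14, 0.051 and 0.035 in the 3 comparisons. Their split moved with the scaling. Quantile normalization gave 42 and 4, 37 and 10, and 4 and 9, and it called 57.0%, 54.1% and 24.9% of all genes. DESeq2 gave 23 and 19 for ZC3H7B and 11 and 9 for ZC3H7A/B-DD, and it called 50.9% and 24.5% of all genes. RPL5, a large subunit protein that binds MDM2, fell with ZC3H7A (log2 change -0.20, limma adjusted p = 0.000967) and with ZC3H7B (-0.37, limma adjusted p = 5.48e-07). RPL5 rose in ZC3H7A/B-DD (0.54, limma adjusted p = 0.0201). That last call was lost without Parental replicate 1 (limma adjusted p = 0.0599) or replicate 2 (limma adjusted p = 0.0918). The called genes of this list in ZC3H7A/B-DD numbered 10 without ZC3H7A/B-DD replicate 3 and 7 without Parental replicate 2. Of all genes, 15.3% and 11.3% were called there.

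Large subunit assembly factors were listed because of RPL7L1. Of 35 tested, 16 rose and 13 fell with ZC3H7A, 16 rose and 6 fell with ZC3H7B, and 8 rose and 4 fell in ZC3H7A/B-DD. The called genes were 82.9%, 62.9% and 34.3% of the list, beside 57.5%, 54.3% and 24.5% of all genes tested. The share of all genes called depends on level. With the filter raised to 50 normalized counts, 29, 22 and 12 of the 35 factors were called, beside 66.0%, 62.5% and 31.4% of all genes. The median log2 difference of the list was -0.037, 0.13 and 0.15. EIF6, which keeps the subunits apart until assembly is complete, rose with ZC3H7A (log2 change 0.65, limma adjusted p = 1.7e-10). It rose with ZC3H7B too (0.69, limma adjusted p = 6.09e-11) and fell in ZC3H7A/B-DD (-0.47, limma adjusted p = 0.00377). NMD3, the export adaptor of the large subunit, fell with ZC3H7A (-0.55, limma adjusted p = 9.88e-10) and with ZC3H7B (-0.66, limma adjusted p = 5.66e-11). It had a log2 difference of 0.32 in ZC3H7A/B-DD (limma adjusted p = 0.0662), which passed without Parental replicate 3 (0.40, limma adjusted p = 0.0124). Quantile normalization gave 17 higher and 8 lower with ZC3H7A and 24 and 5 with ZC3H7B, beside 57.0% and 54.1% of all genes called. In ZC3H7A/B-DD TMM scaling gave 5 and 4 and edgeR 4 and 4, beside 24.5% and 24.2% of all genes. The called factors there numbered 5 without ZC3H7A/B-DD replicate 3 (15.3% of all genes) or Parental replicate 2 (11.3%). They numbered 6 without replicate 1 of ZC3H7A/B-DD (18.3%) or of Parental (14.6%), and 20 without Parental replicate 3 (33.1%).

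CDKN1A, the cell cycle inhibitor p21, stood at 1536 ± 49.7 normalized counts in the control. It fell to 478 ± 28.5 with ZC3H7A (log2 change -1.68, limma adjusted p = 1.81e-15) and to 619 ± 3.43 with ZC3H7B (-1.31, limma adjusted p = 1.05e-13). In ZC3H7A/B-DD CDKN1A rose from 1180.5 ± 73.1 to 3463 ± 604 (log2 change 1.54, limma adjusted p = 9.92e-05). MDM2, a ubiquitin ligase bound by several ribosomal proteins, fell with ZC3H7A (-0.77, limma adjusted p = 1.14e-12) and with ZC3H7B (-0.57, limma adjusted p = 2.12e-10). It also fell in ZC3H7A/B-DD (-0.36, limma adjusted p = 0.0109), a call lost without Parental replicate 1 (limma adjusted p = 0.0518). MDM4, a relative of MDM2, rose with ZC3H7A (0.54, limma adjusted p = 2.96e-06) and with ZC3H7B (0.33, limma adjusted p = 0.000935). It stood at 0.23 in ZC3H7A/B-DD (limma adjusted p = 0.194). BAX did not follow CDKN1A with ZC3H7A (-0.024, limma adjusted p = 0.749) and rose with ZC3H7B (0.29, limma adjusted p = 0.000152). DDB2 fell with ZC3H7A (-0.54, limma adjusted p = 2.49e-08) and with ZC3H7B (-0.16, limma adjusted p = 0.0249). That ZC3H7B call was lost under 5 of 18 other settings. In ZC3H7A/B-DD BAX and DDB2 rose (0.79 and 0.98, limma adjusted p = 0.000591 and 0.00028). Of all genes, 57.5%, 54.3% and 24.5% passed in the 3 comparisons.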

How the data were processed

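Ribosome footprints of 15 HEK293 libraries were read from 1 table that the authors deposited, whose values are a normalized signal per gene. Tools named without version or role in the submitters' processing notes are STAR, Bowtie, cutadapt, DESeq2 and HTSeq, with hg38 and hg19 as genome builds. The build of the alignment and the treatment of reads with several positions are not given in the sources used. Every value was a whole multiple of 1 step per library: 100% gave whole reads within 0.001 reads, and depths are sums of these. All columns mapped to a sample. No read was found for 10735 names, and 2 names were duplicated (4 rows).

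The test on log2(value + 1) was that of limma 3.58.1 under R 4.3.3 (eBayes with trend after lmFit). A gene needed a value of 10 in 3 or more libraries of the set. P-values were adjusted by Benjamini-Hochberg over all genes, and 0.05 was the threshold. A single fit held the 9 Flag/HA libraries and another the other 6. Ratios were tested by exact permutation. On the recovered reads, edgeR 4.0.16 called 8494 genes for ZC3H7B and 4132 for ZC3H7A/B-DD, and DESeq2 1.42.0 called 7934 and 4193. Other alternatives were pseudocounts, filters, scalings, array weights, other sets of libraries, a replicate block and leaving out libraries. Coding sequences and coordinates are from GENCODE 29 (GRCh38), matched by symbol for all 8 members.

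Members and lists were chosen with earlier results of these data known. Named genes are the members, their partner genes, the targets, MDM2, MDM4, CDKN1A, BAX and DDB2, and up to 3 called genes per list and direction with the smallest p. The 5 most alike genes had a mean of at least 20 in a group. Results of markers for blood and fibroblasts are given at the end. A gene and a gene list that needs it are not reported here.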

Additional observations from a re-analysis of the deposited data

Results flagged for a closer look

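RPL22L1 was looked at again because every ZC3H7A library stood above all 3 Flag/HA control libraries and every ZC3H7B library below them. Its log2 difference from the control was 2.80 with ZC3H7A and -0.59 with ZC3H7B. The difference between the 2 lines was not tested, and both comparisons use the same 3 control libraries. The ZC3H7A comparison is also the one on which the members were chosen.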

How the results depend on the processing

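RPL22L1 kept its direction and call under all 18 alternatives for ZC3H7B (log2 -0.63 to -0.54) and all 17 for ZC3H7A/B-DD (1.11 to 1.31), and its untested difference with ZC3H7A stayed between 2.75 and 2.85. RPL22 kept its call with ZC3H7B (0.94 to 1.12). In ZC3H7A/B-DD RPL22 ranged from -0.52 to -0.20 when single libraries were left out, and it was called without ZC3H7A/B-DD replicate 1 (-0.52) and with array weights (-0.49). The number of members called was 4 to 6 with ZC3H7B and 2 to 3 in ZC3H7A/B-DD. Under these settings 23.4% to 62.5% and 9.45% to 44.3% of all genes were called. Directions near 0 turned: with ZC3H7B, RPL7L1 was 0.076 with quantile normalization, 0.00085 with array weights and 0.012 without ZC3H7B replicate 3 (-0.061 to 0.012 over libraries left out). RPL26 was 0.051 with quantile normalization, 0.00077 without ZC3H7B replicate 3 and 0.013 without control replicate 1 (-0.089 to 0.013). In ZC3H7A/B-DD, RPL36AL was 0.069 without ZC3H7A/B-DD replicate 2 and 0.043 without Parental replicate 1 (-0.10 to 0.069). RPL3L was 0.19 without ZC3H7A/B-DD replicate 1 (-0.50 to 0.19). RPL3L had no value under the filter at 50. The cause of these shifts was not tested. Alternatives for the lists and for genes that are no members were chosen after seeing the data. With 1 fit of all 15 libraries, called ribosomal protein genes numbered 25 of 77 for ZC3H7B, where 37.1% of all genes were called. In ZC3H7A/B-DD that fit called 30 ribosomal protein genes and 20 assembly factors, beside 33.5% of all genes. Array weights gave 30 ribosomal protein genes and 23 assembly factors in ZC3H7A/B-DD, beside 44.3% of all genes. With single libraries left out, these lists had 7 to 22 and 5 to 20 called genes there, beside 11.3% to 33.1% of all genes. Over all genes, ZC3H7A/B-DD calls numbered 4182, against 7577 with array weights, 1895 without Parental replicate 2, 2452 without Parental replicate 1 and 2558 without ZC3H7A/B-DD replicate 3. Same-numbered libraries had correlations of deviations over genes of -0.133 to 0.0922, and libraries with another number reached 0.166. With 3 libraries in a group these correlations cannot exclude pairing, and the main fits treat libraries as unpaired. The fit with the replicate block gave 8714 calls for ZC3H7B and 2992 for ZC3H7A/B-DD and changed no call of a member, with RPL22L1 at -0.59 and 1.20. Among the members depth limits RPL3L most, at 4 to 20 reads a library.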

Other observations

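Markers of blood and fibroblasts had footprints in all groups, and HBB had a mean of 687 normalized counts in the Flag/HA control. The summed level of 6 blood markers was 608 to 800.03 normalized counts in control libraries, 254 to 327 in the ZC3H7A group, 333 to 449 in the ZC3H7B group, 168 to 217 in Parental and 306 to 372 in ZC3H7A/B-DD, and HBB led it in the first 4 groups. The summed level of 6 fibroblast markers was 169.7 to 201 in control libraries, 269 to 299.9 in the ZC3H7A group, 213 to 243 in the ZC3H7B group, 634 to 799.5 in Parental and 423 to 511 in ZC3H7A/B-DD. Their part in the results was not tested.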
